A study of Mus musculus with 6 samples.

Results

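The Obox genes are a family of homeobox genes expressed in the mouse oocyte and early embryo. A homeobox encodes a homeodomain, a fold that binds DNA, and in mouse the OBOX proteins are known as transcription factors that take part in switching on the embryonic genome. Some members are stored in the egg as maternal mRNA and others are transcribed after fertilisation, so that the family can be followed through the handover from maternal to embryonic transcripts. Deletion of several Obox genes together is known to impair genome activation and to arrest mouse embryos early, while single members can stand in for one another.

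The 5 members Obox1, Obox2, Obox3, Obox5 and Obox6 were taken by name from the 23259 gene names of the count table, with the row holding the most reads kept for each name. All 5 were present, and 4 of them had a single row, while Obox2 had a second row with no reads. Obox7, a sixth gene of the family, is listed under its RefSeq synonym Gm4745 and is described beside them; it was added after its values had been seen. The samples were Pabpn1l-null zygotes, wild-type (WT) 2-cell embryos and WT zygotes of the mouse, with 2 samples per group and 50 embryos per sample. Zygotes came from mated females, and 26 h after hCG, the hormone injection that triggers ovulation, they were kept for 2 h in 200 μM 4-thiouridine. This uridine analogue enters RNA as it is made, and after alkylation with iodoacetamide its positions are read as C in place of T, so reads with such a mismatch (T-to-C reads) include those of newly made RNA. PABPN1L binds poly(A) tails in the oocyte and works in the decay of maternal mRNA, and the series title asks how that decay relates to early transcription. The sources used here do not name the null allele or the mouse strain, do not say whether mother, embryo or both lacked the gene, and give no hour at which the 2-cell embryos were taken; the protocol text, shared by all 6 samples, speaks of zygotes alone.

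The table gives 1 column of total reads and 1 of T-to-C reads per group, so no difference between groups has a replicate check and every test compares libraries, not conditions. The columns held 1270347 reads in null zygotes, 4020444 in 2-cell embryos and 3001472 in WT zygotes, of which 3.86%, 4.54% and 3.03% were T-to-C reads. There was no unlabelled sample, so the part of T-to-C reads that comes from sequencing error is not known. Pabpn1l itself had 4, 14 and 47 reads in the same order. In unscaled reads, 10 genes of the 2-cell embryo summed to 21, 14625 and 206 in that order. The sums of 10 oocyte genes were 21947, 14533 and 40475. By the rule given below, 7 of 8 genes of the 2-cell embryo tested were higher in 2-cell embryos than in WT zygotes. The remaining one, Dux, did not pass and had more reads in WT zygotes than in 2-cell embryos. Genes could pass the filter of at least 20 reads over the columns through the 2-cell column alone, so this count was in part set by the filter. Of the 10 oocyte genes, 5 were lower in 2-cell embryos and 0 higher. Among all genes tested 17.2% were higher and 16.9% lower. Of the markers of other cells, 13 of cumulus and granulosa cells summed to 42, 102 and 163 reads. The 8 of sperm summed to 274, 1751 and 444, and the 4 of blood to 1, 37 and 42. Only 3, 1 and 1 of these genes reached 20 reads over the columns, so nearly all sperm marker reads come from 1 gene. That gene was higher in 2-cell embryos than in WT zygotes by the same rule. The part of these markers in the results was not tested. Genes with few reads were at 0 in the null column more often than WT zygote levels and independent reads would give; the source of this was not tested, and tests and intervals took 7 reads for a single molecule in all columns. A count of 0 was taken to allow 3 molecules, or 21 reads, which is 15.7 RPM (reads scaled to a common column total with TMM factors) in null zygotes, 5.44 in 2-cell embryos and 7.08 in WT zygotes.

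The 6 protein-coding Obox genes of RefSeq lie within 1.18 Mb of chromosome 7 on GRCm38.p6, the assembly that mm10 represents. In order along the chromosome they are Obox7 (14659708 to 14665996), Obox2 (15388851 to 15398545), Obox1 (15547257 to 15556846), Obox3 (15625306 to 15639777), Obox5 (15750370 to 15759274) and Obox6 (15833250 to 15839679). Obox3 is on the minus strand, and Obox1, Obox2, Obox5 and Obox7 are on the plus strand. Between and beside them RefSeq places 45 Obox pseudogenes, 38 named for Obox4 and 7 for Obox3, and none of the 47 Obox pseudogenes of the genome had a row in the table under its symbol or a synonym. The sources used here do not say how reads matching more than 1 copy were counted, so reads may be shared between members, or between members and pseudogenes, and the part of this in the values of single members was not tested. No other gene name had the same values as a member in all columns.

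**Figure D1:**
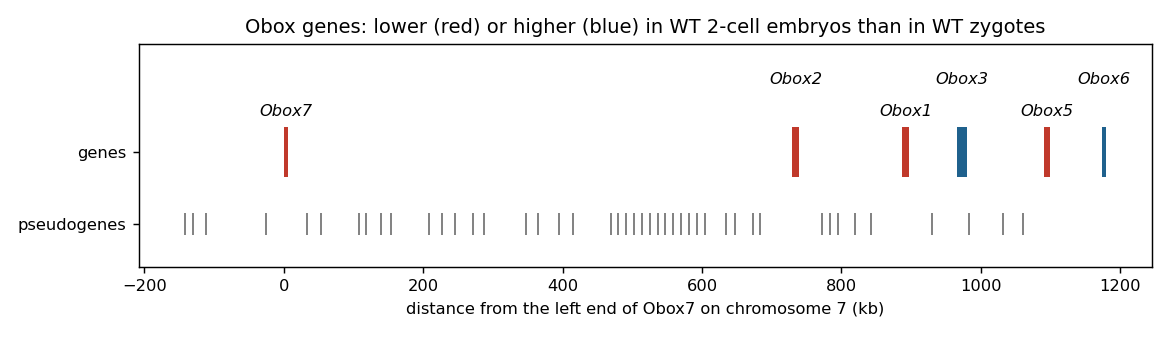
Positions of the 6 Obox genes (boxes, drawn to scale) and of 45 Obox pseudogenes (ticks, at their left ends) on chromosome 7, in kb from the left end of Obox7. Genes lower in WT 2-cell embryos than in WT zygotes are red and those higher are blue; Obox3 and Obox6 lie among and beside the lower ones.

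The copies also resemble one another just ahead of their start sites. RefSeq promoter windows, 250 bases before the annotated start and 50 after it, were at hand for 5 genes and are shown for a member that fell steeply (Obox1), one that fell least (Obox5) and one read only at the 2-cell stage (Obox3). Capitals mark a TATA box, TATATAA, and, in Obox3 alone, GGATTA, the reverse complement of the bicoid-type homeodomain motif TAATCC.
Obox1, chr7:15547007-15547306, plus strand: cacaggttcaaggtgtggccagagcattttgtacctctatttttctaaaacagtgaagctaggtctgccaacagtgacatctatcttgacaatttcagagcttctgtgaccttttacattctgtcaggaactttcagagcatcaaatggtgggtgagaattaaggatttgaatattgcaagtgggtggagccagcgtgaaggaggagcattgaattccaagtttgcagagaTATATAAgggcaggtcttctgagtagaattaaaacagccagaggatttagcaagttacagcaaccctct
Obox5, chr7:15750120-15750419, plus strand: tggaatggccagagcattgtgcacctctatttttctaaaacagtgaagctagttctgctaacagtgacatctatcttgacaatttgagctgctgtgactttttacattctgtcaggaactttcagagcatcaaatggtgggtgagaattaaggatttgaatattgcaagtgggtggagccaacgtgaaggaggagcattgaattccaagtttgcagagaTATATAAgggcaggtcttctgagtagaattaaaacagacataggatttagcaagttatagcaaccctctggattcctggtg
Obox3, chr7:15639728-15640027, minus strand: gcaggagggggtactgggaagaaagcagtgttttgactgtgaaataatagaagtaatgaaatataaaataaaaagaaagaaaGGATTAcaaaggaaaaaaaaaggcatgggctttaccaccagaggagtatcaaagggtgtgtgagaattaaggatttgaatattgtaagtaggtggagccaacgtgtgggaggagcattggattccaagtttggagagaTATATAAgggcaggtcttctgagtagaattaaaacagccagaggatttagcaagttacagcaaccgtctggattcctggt
Over their best local alignment, Obox1 and Obox5 were 95.8% identical across 285 columns, and Obox1 and Obox3 93.3% identical across 164, from base 126 to base 289 of the Obox3 window. Obox1 and Obox2 shared a run of 203 bases without a difference, but the annotated start of Obox2 lies farther upstream, so that its window ends before the stretch that holds TATATAA in Obox1. Obox5 and Obox7 were 97.1% identical across 273 columns. The longest run found in all 5 windows was GTGAGAATTAAGGATTTGAATATTG, 25 bases long. TATATAA was found on either strand in the windows of Obox1, Obox3, Obox5 and Obox7 and in 3.24% of all 32851 promoter windows, and TAATCC on either strand in Obox3 and in 7.06% of all. CCAAT, on either strand, was found in Obox2, Obox3 and Obox7 and in 37.4% of all. Obox3 thus carried sequence closely similar to that of Obox1, Obox5 and Obox7 around TATATAA, while the best alignments of Obox3 with the others began no farther upstream than base 126 of its window.

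The family split in opposite directions between the WT zygote and the WT 2-cell stage. Obox1, Obox2 and Obox5 fell and Obox3 and Obox6 rose in total reads, so that all 5 members were called. A gene was called at a Benjamini-Hochberg adjusted p under 0.05 by the exact conditional binomial test together with a difference of at least 2-fold, and 16.9% of the 11262 genes tested were lower, 17.2% higher and 34.1% either by this rule. Either direction is thus common among all genes. All 5 members passed the filter on low counts, at least 20 reads over the 3 columns, which Obox3 and Obox6 could pass through the 2-cell column alone. All values are relative to the reads of a column, so fewer transcripts per embryo and a larger share of other transcripts cannot be told apart.

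Among the members already present in zygotes, Obox2 fell furthest. It had 299 reads in 2-cell embryos and 4669 in WT zygotes, or 77.5 (95% counting interval 56.5 to 105) and 1575 (1457 to 1699) RPM after TMM scaling. The 2-cell to WT zygote ratio was 0.0492 (95% exact interval 0.0355 to 0.0675, exact test, adjusted p = 1.19e-180), at percentile 0.741 of the genes tested. Obox1 had 539 reads in 2-cell embryos and 2470 in WT zygotes, with a ratio of 0.168 (0.129 to 0.215, exact test, adjusted p = 6.54e-59). Both genes are known as maternal transcripts of the mouse egg.

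Obox5, likewise a maternal member, fell less and had the most reads of the Obox genes at the 2-cell stage. It had 2054 reads in 2-cell embryos and 4416 in WT zygotes, or 532 (473 to 596) and 1489 (1376 to 1610) RPM. The ratio was 0.358 (0.310 to 0.411, exact test, adjusted p = 3.22e-50), at percentile 19.6 of all genes. Set against Obox2, the ratio of Obox5 was 7.26 times as high (95% exact interval 5.11 to 10.3), and set against Obox1 2.13 times as high (1.59 to 2.86). The ratio of Obox1 was in turn 3.41 times that of Obox2 (2.24 to 5.15), so the extents of the fall differed beyond counting error in each pair. Under an exact test by edgeR that assumes a biological coefficient of variation of 0.4 the call of Obox5 was lost, with an adjusted p of 0.194, the highest over its 8 alternatives.

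Obox7 took the same course. It had 125 reads in 2-cell embryos and 930 in WT zygotes, with a ratio of 0.103 (0.0598 to 0.171, exact test, adjusted p = 1.02e-28). Its ratio lay between those of Obox2 and Obox1, and from that of Obox1 it was not told apart by counting (Obox1 over Obox7 1.62, 0.913 to 2.97).

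Obox3 and Obox6 were read at the 2-cell stage and in neither zygote column. Obox6, the member at the end of the cluster, had 799 reads in 2-cell embryos and 0 in WT zygotes, at least 29.2-fold higher at the floor (exact lower end of the ratio 23.4, adjusted p = 2.74e-27). Obox3 had 383 reads in 2-cell embryos and 0 in WT zygotes, at least 14.0-fold higher at the floor (exact lower end 11.1, adjusted p = 5.09e-13). The fold bounds set the WT zygote column at its floor of 21 reads and take the 2-cell count as it stands, while the lower ends also cover the counting error of the 2-cell count. At the 2-cell stage Obox3 had 99.3 (75.2 to 130) RPM and Obox6 207 (171 to 249), against a floor of 7.08 in WT zygotes. A filter of at least 50 reads in at least 2 columns removes both genes by its construction.

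**Figure D2:**
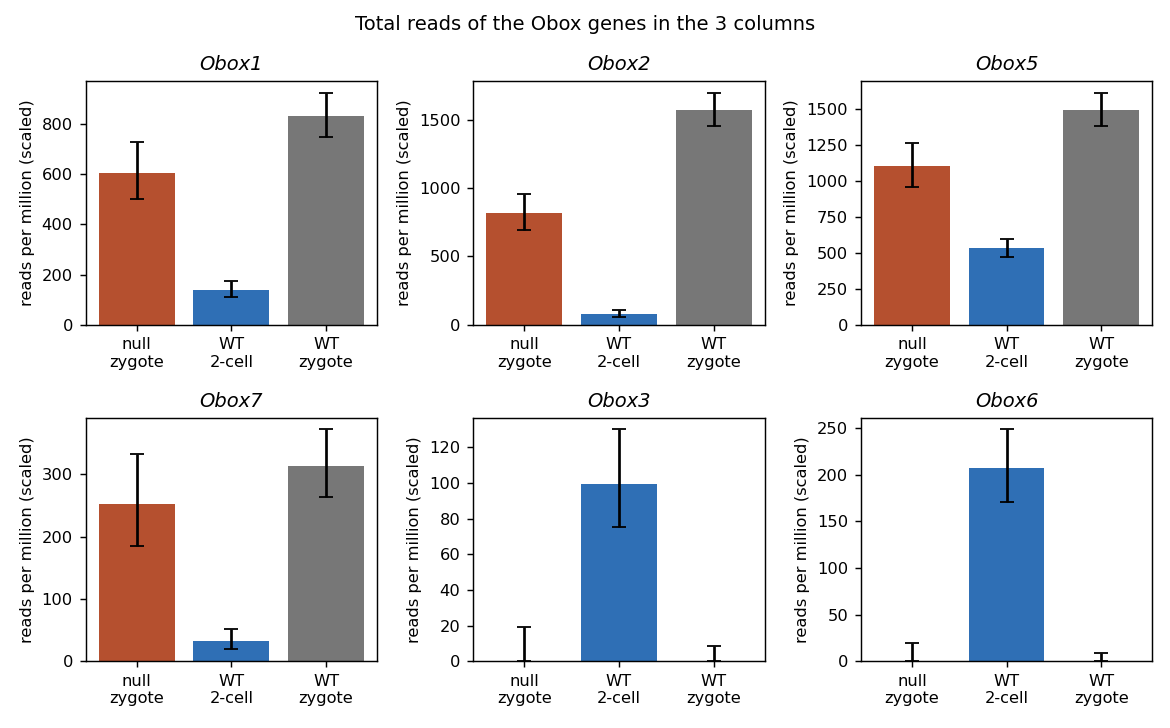
Total reads in RPM, after TMM scaling, of each Obox gene in Pabpn1l-null zygotes (brown), WT 2-cell embryos (blue) and WT zygotes (grey), 1 column per group; each panel has its own axis from 0 and bars carry 95% exact Poisson intervals on molecules of 7 reads. Obox1, Obox2, Obox5 and Obox7 are lowest in 2-cell embryos, and Obox3 and Obox6 have reads there alone.

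Summed over the 5 members, Obox reads fell to 4074 in 2-cell embryos, against 11555 in WT zygotes, a ratio of 0.271 (0.246 to 0.298). The sum hides the exchange: for Obox1, Obox2 and Obox5 together the ratio was 0.192 (0.172 to 0.214). With Obox2 left out the ratio over the other members was 0.421 (0.378 to 0.468), over 1.5 times as high. The make-up of the family changed as well. Obox5 held 50.4% of the summed reads in 2-cell embryos and 38.2% in WT zygotes, whereas Obox2 held 7.34% and 40.4%. Obox3 and Obox6 supplied 9.40% and 19.6% of the 2-cell sum. These shares are of reads, not of transcripts, since they are not corrected for transcript length.

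T-to-C reads of the maternal members were lower at the 2-cell stage too. Obox1 had 5 T-to-C reads in 2-cell embryos and 98 in WT zygotes (ratio 0.0392, 0.00130 to 0.361, exact test, adjusted p = 0.00231). Obox2 had 2 and 84 (upper end of the ratio 0.277, adjusted p = 0.00144 by the exact test). Both 2-cell counts are under the floor of 21 reads, so the upper ends, not the point ratios, bound the drop. Obox5 had 35 and 122 (ratio 0.221, 0.0652 to 0.638, exact test, adjusted p = 0.0315). By the same rule 1.71% of 4376 genes tested were lower in T-to-C reads, 4.34% higher and 6.06% either. The call of Obox5 was lost with RLE factors (exact test, adjusted p = 0.101), with no filter (0.0673) and by edgeR under its assumed variation (0.0626), in a range of 4.59e-17 to 0.101 over 8 alternatives. Obox7 had 0 and 25 T-to-C reads and was not called (exact test, adjusted p = 0.312), though it was with every read counted as 1 molecule (7.71e-09, the lowest over 8 alternatives, whose highest was 0.666).

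Of the members gained, Obox6 carried most of the label. It had 56 T-to-C reads in 2-cell embryos and 0 in WT zygotes, with an adjusted p of 0.133 by the exact test on molecules, and Obox3 had 12 and 0 (adjusted p = 0.937). Neither was called at 7 reads per molecule, and for Obox3 both columns are under the floor, so no fold is given. With every read counted as 1 molecule both were higher, with adjusted p = 2.5e-13 for Obox6 and 0.00459 for Obox3 by the exact test; over 8 alternatives the adjusted p reached 0.403 for Obox6 and 1 for Obox3. Obox6 made up 50.9% of the 110 T-to-C reads of the family in 2-cell embryos, against none of the 304 in WT zygotes, where Obox5 made up 40.1%, Obox1 32.2% and Obox2 27.6%.

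**Figure D3:**
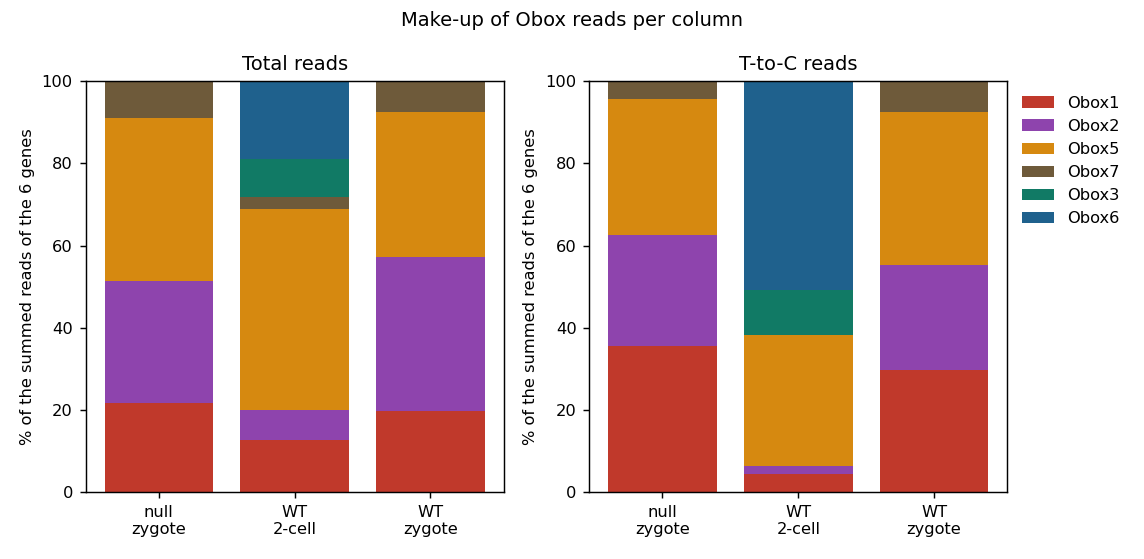
Share of each gene in the summed reads of the 5 members and Obox7, for total reads (left) and T-to-C reads (right), in Pabpn1l-null zygotes, WT 2-cell embryos and WT zygotes, in percent. Obox6 and Obox3 appear in the 2-cell bars alone, and Obox6 takes 50.9% of the T-to-C reads there.

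The share of a gene's reads that were T-to-C reads gives the label relative to the transcripts present. For Obox6 it was 7.01% in 2-cell embryos (56 of 799, 95% Clopper-Pearson interval on molecules 3.08 to 13.4), at percentile 82.2 of the 9197 genes with at least 20 reads in that column, whose median was 1.71%. Obox3 stood at 3.13% (0.443 to 12.5), percentile 67.2. The maternal members were lower in the same column: Obox5 at 1.70% (0.556 to 3.94), Obox1 at 0.928% (0.0329 to 7.02) and Obox2 at 0.669% (upper end 8.41). Obox7 had no T-to-C read among 125, which allows a share of up to 16.8% at 3 molecules, or 18.5% by the Clopper-Pearson limit. The 2-cell column thus put the gained members above and Obox1 and Obox2 below the median gene, with intervals that overlap widely.

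In WT zygotes the order of the point values was another one, though the intervals there overlap as well. Obox1 had the highest share of the maternal members, 3.97% (2.18 to 6.56), at percentile 77.7 of 8013 genes. Obox5 had 2.76% (1.58 to 4.29), Obox7 2.69% (0.825 to 7.52) and Obox2 1.80% (0.933 to 3.12). The WT zygote median over genes was 1.89%, close to the value of Obox2.

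Between the stages, no member's share passed Fisher's exact test on molecules among 3 tested, with 0 at an unadjusted p under 0.05, where 1.84% of 6909 genes had a higher share in 2-cell embryos and 0.0579% a lower one, 1.9% in all. For Obox1 the share was 0.928% in 2-cell embryos and 3.97% in WT zygotes. With every read counted as 1 molecule it passed (Fisher's exact test, adjusted p = 0.00132; range over 3 alternatives 0.00132 to 1), and Obox2 and Obox5 did not. By Fisher's exact test on molecules, a steeper drop of T-to-C reads than of total reads was thus not shown for Obox1, Obox2 or Obox5. For Obox1 it appeared only where every read of these columns was counted as 1 molecule.

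**Figure D4:**
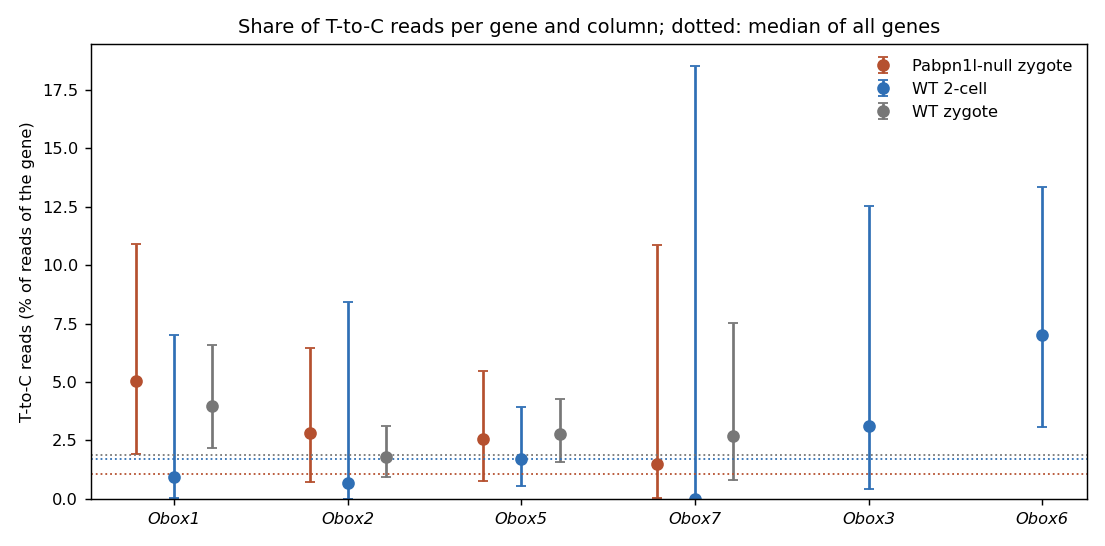
Share of T-to-C reads among the reads of each gene, in percent, in Pabpn1l-null zygotes (brown), WT 2-cell embryos (blue) and WT zygotes (grey); points are the deposited counts, bars are 95% Clopper-Pearson intervals on molecules of 7 reads, and dotted lines are medians of all genes with at least 20 reads in the column. Obox3 and Obox6 have no zygote point because they had no reads there, and Obox6 stands highest in 2-cell embryos at 7.01%.

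The authors' deposited table also gives a Positive or Negative label per gene and group, with no criterion stated. Of 23259 gene names it called 990 (4.26%) Positive in null zygotes, 1356 (5.83%) in 2-cell embryos and 664 (2.85%) in WT zygotes. No Positive gene had fewer than 5 T-to-C reads in 2-cell embryos, where Obox1 had 5 and Obox2 had 2. Negative genes had up to 30 T-to-C reads in 2-cell embryos, 30 in WT zygotes and 15 in null zygotes, so the label does not follow from this count alone. In the authors' deposited table Obox1 and Obox2 were Positive in both zygote columns and Negative in 2-cell embryos, Obox5 was Positive in all columns, and Obox6 was Positive in 2-cell embryos. Obox3 and Obox7 were Negative throughout in the authors' deposited table.

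Between Pabpn1l-null and WT zygotes the ratios of total reads in this family were all within 2-fold. The maternal members had fewer RPM in null zygotes than in WT zygotes. Of the 5 members, 2 of which had no zygote read, 0 were called, though 3 had an unadjusted p under 0.05 and 2 an adjusted p under 0.05 by the exact conditional binomial test, and edgeR under its assumed variation also called 0. Among all genes 0.79% were lower and 0.693% higher. Of 10 oocyte marker genes, 3 were higher and 0 lower in null zygotes by the same rule, with a median log2 ratio of 1.14 against -0.18 over all genes, the other way from the Obox genes; their part in the result was not tested. The null column is the shallowest, yet Obox1, Obox2 and Obox7 had more reads there than in 2-cell embryos (813 and 539, 1098 and 299, 339 and 125). Obox5 had fewer (1475 and 2054). With 1 column per group, a difference under 2-fold in a single member has no replicate check.

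Obox2 came nearest to the threshold. It had 1098 reads in null zygotes and 4669 in WT zygotes, or 819 (697 to 959) and 1575 (1457 to 1699) RPM, a ratio of 0.520 (0.435 to 0.621, exact test, adjusted p = 2.66e-12). Its ratio stood at percentile 21.5 of all genes. By edgeR under its assumed variation the adjusted p was 0.842, the highest over 8 alternatives, whose lowest was 7.3e-93. Obox5 had 1475 reads in null zygotes and 4416 in WT zygotes, a ratio of 0.739 (0.630 to 0.866, exact test, adjusted p = 0.00692). For Obox1 the counts were 813 and 2470, with a ratio of 0.728 (0.584 to 0.899, exact test, adjusted p = 0.0763), and for Obox7 339 and 930, with a ratio of 0.806 (0.562 to 1.12). Obox1, Obox5 and Obox7 lay between percentiles 37.7 and 43.1, near the middle of all genes, whose median log2 ratio was -0.18. The ratio of Obox2 was 0.704 times that of Obox5 (0.553 to 0.895) and that of Obox1 was 1.40 times that of Obox2 (1.05 to 1.85). Summed over the members, the reads were 3386 in null zygotes and 11555 in WT zygotes, a ratio of 0.648 (0.585 to 0.718).

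Obox3 and Obox6 had 0 reads in null zygotes and 0 in WT zygotes. At the floor this leaves up to 15.7 RPM in null zygotes undetected, under the 99.3 and 207 of 2-cell embryos. The members that rise at the 2-cell stage were therefore detected in neither zygote column, and levels under the floor cannot be told from 0.

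For T-to-C reads, every interval of the null to WT zygote ratio of Obox1, Obox2 and Obox5 included 1. Obox1 had 41 in null zygotes and 98 in WT zygotes (ratio 0.926, 0.299 to 2.63), Obox2 31 and 84 (0.817, 0.173 to 2.43) and Obox5 38 and 122 (0.689, 0.188 to 1.84). Obox7 had 5 and 25, with a ratio of 0.443 that few reads bound (0.0112 to 5.59), and a share of 1.47% in null zygotes and 2.69% in WT zygotes. Of 5 members 0 were called and 0 had an unadjusted p under 0.05 by the exact test, and edgeR's exact test called 0, where 0.0686% of all genes were higher and 0% lower. As a share of its reads, T-to-C reads made up 5.04% in null zygotes and 3.97% in WT zygotes for Obox1, 2.82% and 1.80% for Obox2 and 2.58% and 2.76% for Obox5. That of the whole null column was higher than that of the WT zygote column as well, 3.86% and 3.03%. No member's share passed Fisher's exact test, with 0 of 3 at an unadjusted p under 0.05, where 0.0167% of 5999 genes had a lower share and 0% a higher one.

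**Figure D5:**
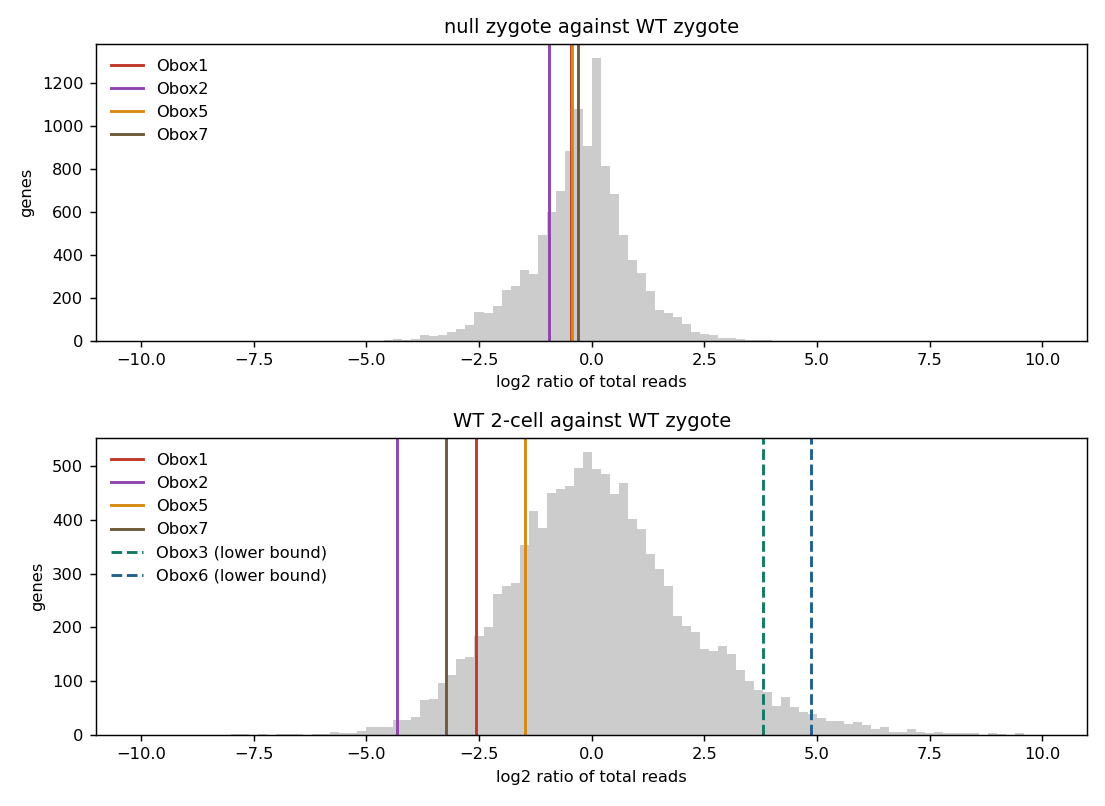
Histograms of the log2 ratio of total reads over all 11262 genes tested, for Pabpn1l-null against WT zygotes (top) and WT 2-cell embryos against WT zygotes (bottom), with the Obox genes as vertical lines; dashed lines are lower bounds for genes with 0 reads in WT zygotes. At the top the lines lie near the middle of the histogram, with Obox2 lowest at -0.94, and at the bottom they spread from -4.33 for Obox2 to bounds of 3.81 for Obox3 and 4.87 for Obox6.

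Among other homeobox genes more were called higher than lower at the 2-cell stage. Of 69 listed genes with a row, 46 were tested, and 13 were higher and 5 lower in 2-cell embryos than in WT zygotes, with a median log2 ratio of 0.81 against 0.03 over all genes. Among all genes 17.2% were higher and 16.9% lower, the list was not tested against them, and some of its members may have passed the filter through the 2-cell column alone. Nobox, an oocyte homeobox factor needed for follicle development, had 72 reads in 2-cell embryos and 465 in WT zygotes, a ratio of 0.119 (lower end 0.0534), and so took the same direction as Obox1 and Obox2. Lhx8, another oocyte factor, had 127 and 297 (ratio 0.329). Pknox2, a TALE-class homeobox gene, had 671 and 6 reads, with 12.9 as the lower end of the exact interval of its ratio. Esx1 had 143 and 0, at least 5.23-fold higher at the floor (exact lower end 3.80), and Dlx3 123 and 0, at least 4.50-fold higher (3.38), the pattern of Obox3 and Obox6. Between null and WT zygotes 0 of the 46 were called by the exact test, with 6 at an unadjusted and 1 at an adjusted p under 0.05 and 0 by edgeR's exact test, and the median of -0.69 moved to 0 with genes at 0 set at their bound. The 1 gene was Meis2, a TALE-class homeobox gene, with 921 reads in null zygotes and 3546 in WT zygotes, a ratio of 0.575 (0.472 to 0.699, exact test, adjusted p = 7.49e-07), the direction of the Obox genes. Nobox had 257 reads in null zygotes and 465 in WT zygotes, a ratio of 1.22 (0.806 to 1.88), and did not pass.

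Regulators of genome activation, the process in which OBOX proteins act, were more often higher than lower at the 2-cell stage. Of 50 tested, 23 were higher and 9 lower in 2-cell embryos than in WT zygotes, beside 17.2% higher and 16.9% lower among all genes, with a median log2 ratio of 1.08, or 0.86 at the bounds. As with the homeobox list, members may have passed the filter through the 2-cell column alone, and the list was not tested against other genes. It was chosen with earlier results of these data known, and it shares Zscan4c, Zscan4d, Zscan4f, Zfp352 and Dux with the 2-cell markers. It also shares Zar1 and Dppa3 with the oocyte markers, and Dux and Pou5f1 with the homeobox list. Zar1 is thus also among the 3 oocyte markers higher in null zygotes. Zfp352, a zinc finger gene of the 2-cell stage, had 3757 reads in 2-cell embryos and 7 in WT zygotes, and Zscan4f, of a family that may share reads, 334 and 0, at least 12.2-fold higher at the floor (exact lower end 9.62). Dux, a homeobox gene that starts a 2-cell program, had 84 and 150 reads and did not pass (exact test, adjusted p = 0.0553). Dppa2, which works upstream of Dux, had 325 and 236 (ratio 1.06). Otx2 had 13 reads in 2-cell embryos and 0 in WT zygotes, too few to test. Between the zygotes Zar1, an RNA-binding oocyte protein gene, was higher (577 reads in null zygotes and 575 in WT zygotes, ratio 2.22) and Atrx, a chromatin remodeller gene, lower (159 and 981, ratio 0.359), while Dux (13 and 150) and Dppa2 (31 and 236) did not pass.

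By likeness over the 3 columns, measured as the distance in the 2 log2 ratios of total reads among 4101 named genes with at least 100 reads per column on average, each maternal member had close neighbours. Nearest to Obox1 was Hbs1l (distance 0.02 on the log2 scale), followed by Nono and Ubash3b. Nearest to Obox5 were Vps37b (0.02), Slc24a5 and Csmd3. For Obox2, which lies in a sparse part of the distribution, the nearest was Zfp955a at 0.14, with 145 reads in null zygotes, 36 in 2-cell embryos and 662 in WT zygotes, then Cldn8 and Pak1ip1. Obox3 was nearest to Tdpoz2 (0, 375 and 0 reads in the same order), the homeobox gene Uncx (0, 396 and 0) and Rab20 (0, 342 and 0). Obox6 was nearest to Fam109a (0, 791 and 0), Plekho2 (0, 834 and 0) and Trim43a (0, 841 and 0). For these genes with no zygote read the distance reflects the 2-cell count alone.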

How the data were processed

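Per the file headers, the deposited table holds, for each gene row and group, the count of all reads, the count of T-to-C reads and a call made by the authors. The counts were deposited unnormalised. The genome build was mm10, per the submitters' processing notes. Not given in the sources used here were the aligner, how reads were counted, the treatment of duplicates and whether a column merges both samples of its group.

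Of 30493 rows, 47 whose names had turned into dates were left out, and 1 row was kept per name. Total reads were scaled by TMM factors (edgeR 4.0.16) of 1.06 in null zygotes, 0.959 in 2-cell embryos and 0.988 in WT zygotes, used for T-to-C reads too. Scaled from WT zygotes, 969 genes should have had 3 to 5 reads in the null column; 54.9% had 0, where independent reads would leave 2.08% at 0, so 7 reads were taken as 1 molecule; whether the excess of 0 comes from clumped reads of the null column, of the WT zygote column or from the samples was not tested. Genes with at least 20 total reads or 10 T-to-C reads over the columns were tested by the two-sided exact conditional binomial test (SciPy 1.17.1), with 0.5 molecule added before log2 ratios, and shares by Fisher's exact test where both columns had at least 20 reads. Intervals are exact 95% intervals and, like the floors, cover counting error only, since PCR reads without molecular identifiers are not independent.

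Members and lists were chosen with earlier results of these data known. The genes named were the 5 members, Obox7, 5 set homeobox and activation genes (of which Crxos was not analysed here), examples among the called list members with the largest ratios, Lhx8 and Meis2, chosen after their values were seen, and the 3 nearest genes per member. Planned edgeR quasi-likelihood fits, which need a column per sample, could not be made. Sequences are RefSeq's (GRCm38.p6), and none was used for Obox6.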

Additional observations from a re-analysis of the deposited data

How the results depend on the processing

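The 5 members kept their direction in total reads under every alternative that tested them, and of 182 values of single genes under an alternative 168 kept direction and call, 4 lost the call (Obox5 in each), 10 gained it and 0 reversed. No paired analysis was possible because the table has 1 column per group and measure, and leaving out replicates was not run for the same reason. With at least 50 reads in at least 2 columns, 0 members were called higher for total reads and 0 were called lower for T-to-C reads in 2-cell embryos, since they left the test. With every read counted as 1 molecule, or with 7 reads per molecule in the null column only, 2 members were higher in T-to-C reads and 1 had a lower share; edgeR's exact test gave 1 higher. Genes called in null against WT zygotes numbered 167 in total reads, 2807 with single reads and 376 with 7 reads per molecule in the null column alone. In T-to-C reads they numbered 3, and 844, 9, 5 with the filter of 50 and 1 by edgeR. At the 2-cell stage 3839 genes were called in total reads, 2284 with the filter of 50 and 6678 with single reads, also with 7 reads per molecule in the null column alone. In T-to-C reads 265 were called, 88 with the filter, 2233 with either of these and 937 by edgeR. The causes were not tested. Without Obox1, Obox2, Obox3, Obox5 and Obox6 in turn, the summed 2-cell to WT zygote ratio was 0.299, 0.421, 0.246, 0.218 and 0.218, and without Obox2 the null to WT zygote ratio was 0.735. With Obox7 added, chosen after seeing the data, these ratios were 0.259 and 0.660. The part of called genes that were higher was 50.3% in total reads at the 2-cell stage and 60.8% under RLE factors, with a median log2 ratio over all genes of 0.29 in place of 0.03; in T-to-C reads it was 71.7%, and 45.1% with T-to-C reads scaled by their own total. In null against WT zygotes it was 46.7%, 61% with column totals and 16.3% by edgeR. At the 2-cell stage the filter of 50 gave 33.8% for total and 40.9% for T-to-C reads. T-to-C counts as low as 2 and 5 limit what the shares of Obox1 and Obox2 can show at the 2-cell stage.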
